A study of Mus musculus with 7 samples.

Results

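Prostaglandin E2 is made, carried, destroyed and sensed by the products of a small set of genes, and 10 of them were followed through colitis in the mouse colon. They were chosen by role: the cytosolic phospholipase Pla2g4a, the cyclooxygenases Ptgs1 and Ptgs2, the prostaglandin E synthases Ptges, Ptges2 and Ptges3, the uptake carrier Slco2a1, the degrading enzyme Hpgd and the receptors Ptger2 and Ptger4. These 10 were among 18036 genes with at least 1 read in any library, and all 10 had reads in each of the 7 libraries. Of the 10, 9 passed a filter of at least 1 RPKM (reads per kilobase of gene per 1000000 unique reads) in at least 2 libraries, as did 12061 genes in all, and Ptger2 did not.

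RNA was sequenced from epithelium scraped off the colon of female hCYP1A mice, animals of C57BL/6 label that carry the human CYP1A genes in place of their own, at 6 weeks of age. The PhIP/DSS animals had 2 doses of 100 mg/kg PhIP, a carcinogen formed in cooked meat, 4 days apart, and then, a week on, drank 1.5% dextran sulfate sodium (DSS, an agent that injures the colon lining) for 5 days, whereas the DSS animals had the same DSS course alone. Both were killed 1, 3 or 7 days after DSS, and the labels give colitis as the pathology on days 1 and 3 and partial colitis on day 7. Control mice were untreated and normal, so all groups shared the hCYP1A background and none had PhIP without DSS. Each of the 7 libraries was 1 pool of RNA from 3 mice, 1 library per condition. A value of a single library therefore has no replicate, and the intervals given with ratios cover counting error only.

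Depth, in units of 1000000 unique reads, was 8.26 to 8.78 in the treated libraries and 7.66 in the control. The epithelial label held: Epcam, an adhesion protein of epithelial cells, was at 812 to 1018 RPKM in the treated libraries and 718 RPKM in the control, and the summed level of 10 colon epithelium markers was 10874 to 12531 RPKM in treated libraries and 10203 RPKM in the control. The libraries also held transcripts of other cells. PhIP/DSS day 1 stood apart, with a summed level of 6 fat tissue markers of 125.8 RPKM, against 2.47 to 6.54 RPKM in the other treated libraries and 15.98 RPKM in the control. For Ptgs2 and Ptges, the fitted values of day 1, of day 7 against day 1 and of PhIP are given below with and without it. Day 1 fold changes of the other genes include that library, and their values without it are not given. In bulk RNA of this kind, fewer cells of a type and less RNA per cell cannot be told apart.

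Prostaglandin E2 starts with arachidonic acid, which phospholipases A2 release from membrane lipids. Cyclooxygenases (COX-1 from Ptgs1, kept on in many tissues, and COX-2 from Ptgs2, induced by inflammatory signals) turn it into prostaglandin H2, and prostaglandin E synthases finish the product. The carrier encoded by Slco2a1 brings prostaglandins back into cells, where 15-hydroxyprostaglandin dehydrogenase, the product of Hpgd, inactivates them. In the colon the product acts on epithelium, stroma and immune cells through its EP receptors, and it is known both for helping ulcers heal and for promoting tumours.

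Cytosolic phospholipase A2, which supplies arachidonic acid, had a narrow range. Pla2g4a had 17.4, 17.4 and 16.9 RPKM in PhIP/DSS on days 1, 3 and 7, 17.4, 19.2 and 17.4 RPKM in DSS on the same days, and 15.04 RPKM in the control. All 6 treated libraries lay above the control, but no library differed from its neighbour in the order of levels beyond counting error, and the treated libraries spanned a ratio of 1.13 from highest to lowest. Against the control, the 95% interval of the ratio left out 1 in DSS day 3 (1.11 to 1.47) and, narrowly, in PhIP/DSS day 3 and DSS day 1. It held 1 in the other treated libraries. COX-1 was low. Ptgs1 had 1.35, 0.622 and 1.79 RPKM in PhIP/DSS, 0.760, 1.35 and 0.973 RPKM in DSS and 1.32 RPKM in the control, from 15 to 43 reads in the treated libraries and 29 in the control. Treated and control values overlapped, with 3 treated libraries above the control and 3 below it, and no neighbours in the order were apart beyond counting error. PhIP/DSS day 3 was the lowest, at 0.471 times the control (95% interval 0.234 to 0.907).

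COX-2 had the widest range of the 10 genes. Ptgs2 had 32.0, 1.14 and 4.16 RPKM in PhIP/DSS on days 1, 3 and 7, 2.01, 13.9 and 13.4 RPKM in DSS on days 1, 3 and 7, and 0.189 RPKM in the control, which rested on 6 reads. All 6 treated libraries were above the control, and the treated values themselves spanned a ratio of 27.9. The PhIP/DSS arm was highest on day 1 and the DSS arm on days 3 and 7. Reads covered 99.1%, 36.9% and 64.4% of the gene's length in PhIP/DSS, 47.5%, 96.7% and 95.5% in DSS and 6.0% in the control, where most of the transcript was therefore unseen. As a ratio to the control, Ptgs2 stood at 169 (95% interval 77.6 to 463), 6.07 (2.56 to 17.5) and 22.0 (9.89 to 61.1) in PhIP/DSS on days 1, 3 and 7. In DSS the ratios were 10.7 (4.68 to 30.1), 73.6 (33.6 to 202) and 71.0 (32.4 to 195). In the order of levels, DSS days 3 and 7 were not apart beyond counting error, and every other pair of neighbours was.

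The inducible, microsomal prostaglandin E synthase had a similar order of libraries. Ptges had 12.1, 1.17 and 2.19 RPKM in PhIP/DSS on days 1, 3 and 7, 0.879, 4.81 and 3.89 RPKM in DSS and 0.572 RPKM in the control. PhIP/DSS day 1 was again highest, DSS days 3 and 7 came next, and the control was lowest. Its ratios to the control were 21.1 (95% interval 12.8 to 37.3), 2.05 (1.11 to 3.95) and 3.82 (2.19 to 7.06) in PhIP/DSS and 1.54 (0.803 to 3.04), 8.40 (5.01 to 15.1) and 6.79 (4.01 to 12.3) in DSS. The interval of DSS day 1 held 1, so a difference from the control was not detectable there at this depth.

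The other E synthases took different paths. Ptges3, which encodes the cytosolic synthase also known as the Hsp90 co-chaperone p23, had 105.6, 56.8 and 56.8 RPKM in PhIP/DSS, 71.0, 64.6 and 47.4 RPKM in DSS and 39.3 RPKM in the control. All 6 treated libraries were above the control, by ratios of 1.21 in DSS day 7 to 2.69 in PhIP/DSS day 1, and in both arms day 1 was the highest. Ptges2, the membrane-associated synthase, had 16.7, 16.2 and 12.2 RPKM in PhIP/DSS, 15.5, 13.3 and 14.1 RPKM in DSS and 17.1 RPKM in the control. Its treated values were all below the control, the lowest at a ratio of 0.714 in PhIP/DSS day 7, and no neighbours in the order were apart beyond counting error.

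**Figure D1:**
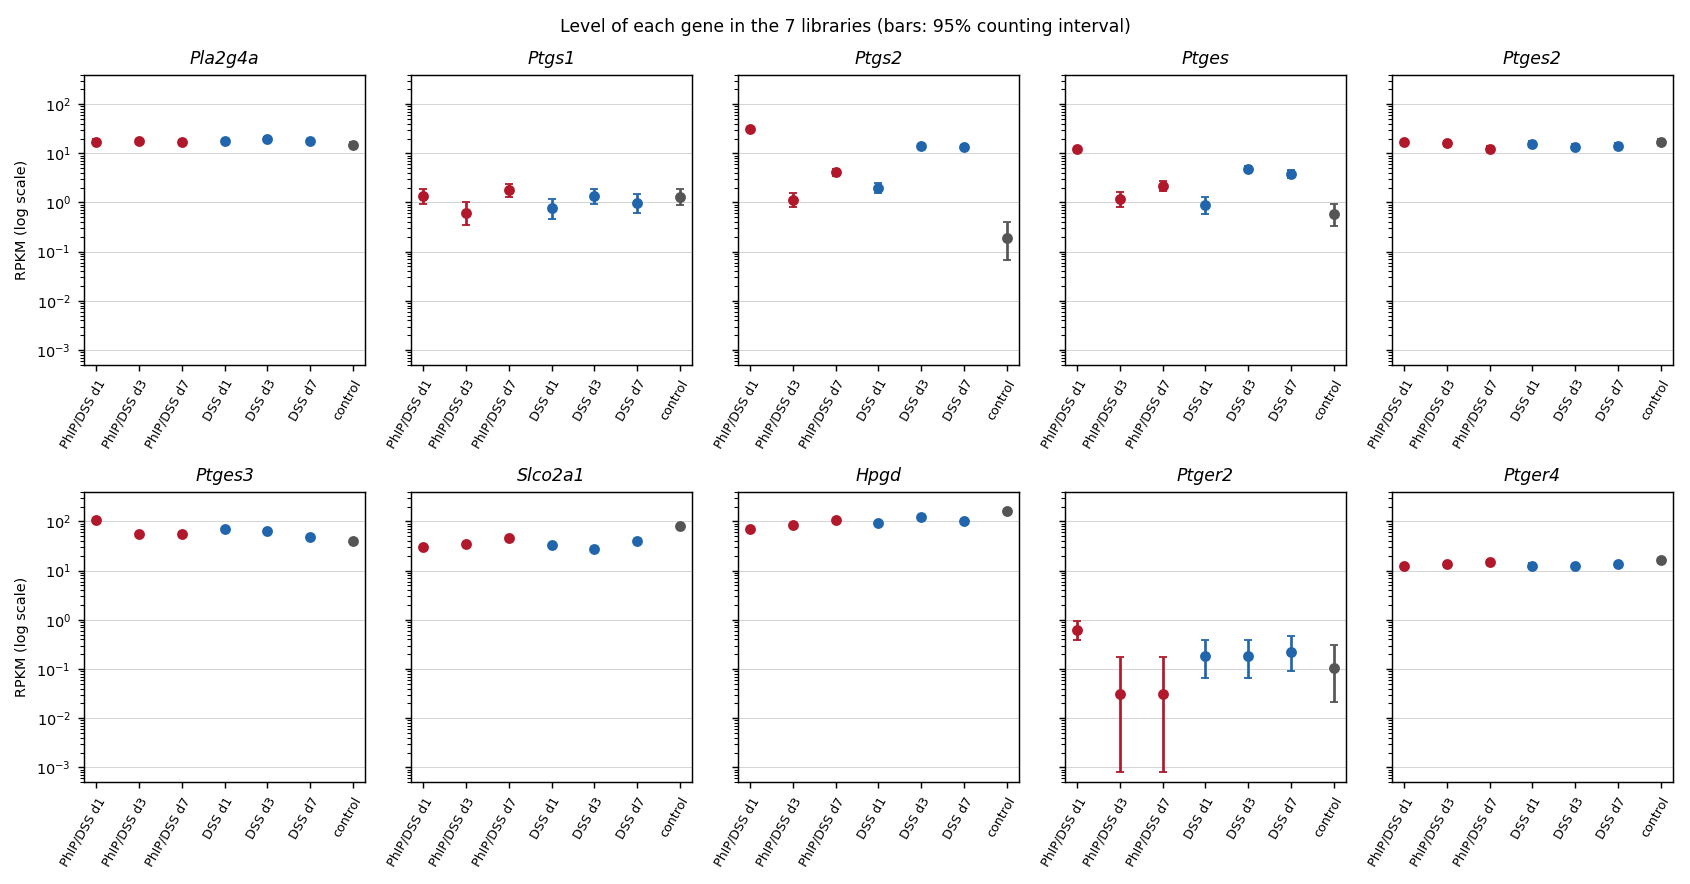
RPKM (log scale) of the 10 genes in the 7 libraries, PhIP/DSS in red, DSS in blue and the control in grey, with 95% counting intervals as bars. Ptgs2 runs between 32.0 RPKM in PhIP/DSS day 1 and 0.189 RPKM in the control, Ptges follows a similar order, and Hpgd and Slco2a1 are highest in the control.

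The stretch of 250 bases before the RefSeq transcription start is shown for Ptgs2 and Ptges, the pair of synthetic genes that were highest in the same libraries, and for Hpgd, which was lower in every treated library. Sequences are from RefSeq on GRCm38.p6, written 5′ to 3′ on the gene's strand, with matches to the searched motifs in capitals. Ptgs2 is on the plus strand at chr1:150099781-150100030, a window that also overlaps an exon of the noncoding gene Ptgs2os, Ptges on the minus strand at chr2:30903298-30903547 and Hpgd on the plus strand at chr8:56294302-56294551. The start used for Ptges lies inside the gene's RefSeq span of 30889471 to 30931020.
Ptgs2: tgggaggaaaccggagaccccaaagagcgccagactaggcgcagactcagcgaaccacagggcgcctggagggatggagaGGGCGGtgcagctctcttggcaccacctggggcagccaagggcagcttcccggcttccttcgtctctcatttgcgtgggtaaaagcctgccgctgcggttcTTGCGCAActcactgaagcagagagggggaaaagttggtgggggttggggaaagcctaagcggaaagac
Ptges: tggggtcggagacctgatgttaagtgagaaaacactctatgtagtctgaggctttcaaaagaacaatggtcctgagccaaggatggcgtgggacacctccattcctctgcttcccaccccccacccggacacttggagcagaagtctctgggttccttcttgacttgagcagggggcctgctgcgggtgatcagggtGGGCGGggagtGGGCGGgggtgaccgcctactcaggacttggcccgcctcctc
Hpgd: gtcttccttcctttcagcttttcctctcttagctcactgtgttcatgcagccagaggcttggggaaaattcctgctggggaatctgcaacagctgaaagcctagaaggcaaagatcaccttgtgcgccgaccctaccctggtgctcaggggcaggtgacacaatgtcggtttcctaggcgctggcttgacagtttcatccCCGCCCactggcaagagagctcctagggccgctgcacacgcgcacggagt
The motifs searched on both strands were the C/EBP palindrome TTGCGCAA, the GC box sequence GGGCGG, the core TGACG of cAMP response elements, the E-box sequence CACGTG and the TATA box sequence TATAAA. Ptgs2 had TTGCGCAA, which 0.164% of 32851 mouse promoters of the same length hold, beginning at position -69 from the transcription start, and a GC box at -170. Ptges had 2 GC boxes, at -53 and -42, and Hpgd had 1 on the other strand, read as CCGCCC, at -50. A GC box was found in 6 of the 10 genes and in 32.7% of all promoters. Within the 250 bases searched, TGACG was in 0 of the 10 and in 17.8% of all promoters. Bases past the RefSeq start were not searched, so a motif there would be missed. CACGTG was in 1 of the 10, Ptges2, and in 6.02% of promoters, and TATAAA in 1, Slco2a1, and in 12.4%. The matches describe letters only, and binding was not measured.

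Slco2a1, for uptake, and Hpgd, for breakdown, were highest in the control. Slco2a1 had 29.9, 35.3 and 45.9 RPKM in PhIP/DSS on days 1, 3 and 7, 32.6, 27.6 and 40.8 RPKM in DSS and 79.2 RPKM in the control, from 979 to 1556 reads in treated libraries and 2447 in the control. Every treated library lay below the control, and in both arms day 7 was nearest to it. The ratios to the control were 0.378, 0.446 and 0.580 in PhIP/DSS and 0.412, 0.349 and 0.515 in DSS, with every 95% interval within 0.324 to 0.618.

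Hpgd, whose enzyme starts the inactivation of prostaglandin E2, had 70.1, 85.1 and 104.9 RPKM in PhIP/DSS, 95.02, 120.8 and 103.4 RPKM in DSS and 163.4 RPKM in the control. All treated values lay below the control. The PhIP/DSS arm was lowest on day 1 and the DSS arm was highest on day 3, the day on which its Ptgs2 was also highest. Ratios to the control were 0.429 (95% interval 0.398 to 0.462), 0.521 (0.485 to 0.559) and 0.642 (0.601 to 0.686) in PhIP/DSS, and 0.581 (0.543 to 0.622), 0.739 (0.694 to 0.787) and 0.632 (0.591 to 0.676) in DSS. PhIP/DSS day 7 and DSS day 7 were not apart beyond counting error, and every other pair of neighbours was.

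Set against each other per length, Hpgd RPKM was 2.19, 74.4 and 25.2 times Ptgs2 RPKM in PhIP/DSS on days 1, 3 and 7. The multiple was 47.2, 8.70 and 7.72 in DSS and 866 in the control (95% interval 397 to 2363). PhIP/DSS day 1 had the lowest ratio of the degrading to the inducible synthetic transcript and the control library the highest. Between the cyclooxygenases, Ptgs2 RPKM was 23.7, 1.84 and 2.33 times Ptgs1 RPKM in PhIP/DSS, 2.65, 10.3 and 13.8 times in DSS and 0.143 times in the control. COX-2 was the more abundant cyclooxygenase transcript in the 6 treated libraries and COX-1 in the control.

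The EP4 receptor varied little and the EP2 receptor was near the limit of detection. Ptger4, for EP4, had 12.2, 13.4 and 14.7 RPKM in PhIP/DSS, 12.6, 12.4 and 13.5 RPKM in DSS and 16.1 RPKM in the control. All 6 treated libraries were below the control, at ratios of 0.757 in PhIP/DSS day 1 to 0.912 in PhIP/DSS day 7, and in both arms the value of day 7 was the highest. No neighbours in the order were apart beyond counting error. Against the control, however, the 95% interval left out 1 in every treated library but PhIP/DSS day 7. For PhIP/DSS day 1 it was 0.646 to 0.886. Ptger4 shares its place with Ttc33 on the opposite strand, and whether the counting used strand is not stated in the sources used here, so reads of both genes cannot be told apart where they overlap. Ptger2, for EP2, had 0.622 RPKM in PhIP/DSS day 1 from 20 reads, and 0.0315 to 0.225 RPKM in the other treated libraries from 1 to 7 reads, against 0.104 RPKM in the control from 3 reads. The ratio of PhIP/DSS day 1 to the control was 5.99 (95% interval 1.78 to 31.5), and the intervals of the other 5 treated libraries held 1. Ptger2 also has opposite-strand neighbours within its span.

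Of the 9 genes past the filter, 3 were past 2-fold higher than the control in PhIP/DSS day 1 (Ptgs2, Ptges and Ptges3), where 12.2% of all genes tested were, and 2 were past 2-fold lower (Slco2a1 and Hpgd), where 9.68% were. In PhIP/DSS day 3, 2 were higher (Ptgs2 and Ptges, background 5.48%) and 2 lower (Ptgs1 and Slco2a1, background 4.32%), and in PhIP/DSS day 7, 2 were higher (Ptgs2 and Ptges, 7.76%) and 0 lower (3.86%). In DSS day 1, 1 was higher (Ptgs2, 6.71%) and 1 lower (Slco2a1, 6.14%). DSS day 3 had 2 higher (Ptgs2 and Ptges, 8.02%) and 1 lower (Slco2a1, 6.36%), and DSS day 7 had 2 higher (Ptgs2 and Ptges, 8.07%) and 0 lower (5.15%). Ptgs2 was past 2-fold higher in all 6 libraries, as were 3.34% of genes, and 0 of the 9 were past 2-fold lower in all 6, where 1.24% of genes were. The 6 ratios share the 1 control library. Pla2g4a, Ptgs2, Ptges and Ptges3 were above the control in all 6, where 25.3% of genes were, and Ptges2, Slco2a1, Hpgd and Ptger4 were below it in all 6, where 29.7% were. The median log2 ratio of the 9 lay between -0.25 in DSS day 7 and 0.17 in PhIP/DSS day 7.

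**Figure D2:**
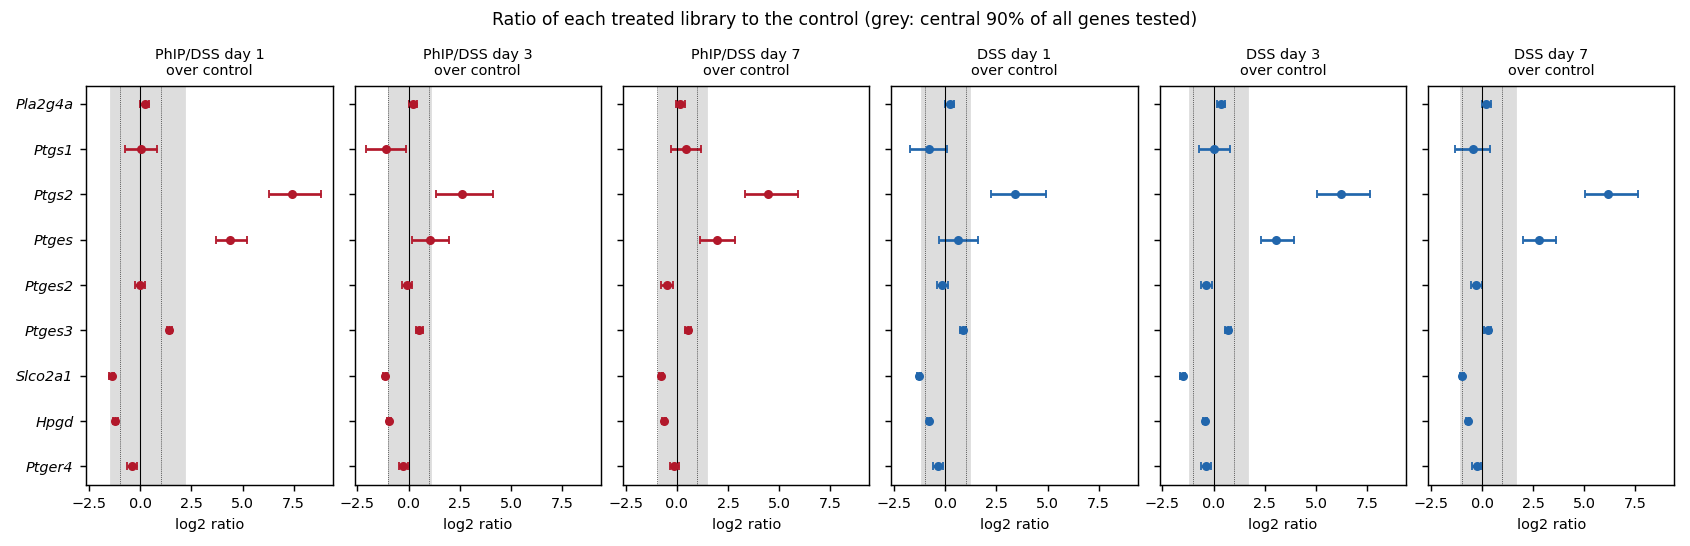
Log2 ratio of each treated library to the control for the 9 genes past the filter, with 95% counting intervals, the central 90% of all genes tested in grey and dotted lines at 2-fold. Ptgs2 lies beyond the grey band on the right in all 6 libraries, and Slco2a1 and Hpgd lie left of 0 in all 6.

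The comparisons of the days with the control took the mean of both arms on a day and drew the spread from how far the difference between arms varied over days. With edgeR's quasi-likelihood test and Benjamini-Hochberg adjustment, 0 of the 9 genes and 0 of 12061 genes passed an adjusted p under 0.05 in any of the 5 comparisons, that is 0% called in each. At an unadjusted p under 0.05 the genes were 4 of 9 on day 1 (32.6% of all genes), 3 of 9 on day 3 (19% of all), 2 of 9 on day 7 (17.2%), 2 of 9 for day 7 against day 1 (26.3%) and 0 of 9 for PhIP/DSS against DSS (3.66%). The other tools called different numbers. DESeq2 called 4 of 9 on day 1 (Ptgs2, Ptges3, Slco2a1 and Hpgd), where it called 10.5% of all genes with an adjusted p. It called Slco2a1 alone on day 3 (1 of 8, 4.51% of all) and on day 7 (1 of 9, 3.81%), Ptges3 alone for day 7 against day 1 (1 of 7, 9.39%) and 0 of 8 for PhIP/DSS against DSS (0.137%). With limma on log2(RPKM + 1) or log2(RPKM + 0.1), 0 of the 9 were called in each comparison.

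Slco2a1 had the smallest edgeR adjusted p of the 9 in each comparison with the control. Its log2 fold change was -1.34 (SE 0.16, edgeR adjusted p = 0.0710) on day 1, -1.31 (SE 0.16, edgeR adjusted p = 0.118) on day 3 and -0.84 (SE 0.16, edgeR adjusted p = 0.141) on day 7. Hpgd had -1.01 (SE 0.18, edgeR adjusted p = 0.0711) on day 1, -0.66 (SE 0.18, edgeR adjusted p = 0.197) on day 3 and -0.62 (SE 0.18, edgeR adjusted p = 0.226) on day 7. For these 2 genes both arms lay below the control on each day, and the standard errors were small against the differences.

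Ptgs2 had the largest fold changes and the widest errors of the 9, with log2 values of 6.82 (SE 3.30, edgeR adjusted p = 0.222), 5.03 (SE 3.24, edgeR adjusted p = 0.430) and 5.38 (SE 3.20, edgeR adjusted p = 0.433) on days 1, 3 and 7. Ptges had 3.47 (SE 2.06), 2.41 (SE 1.97) and 2.43 (SE 1.95), with edgeR adjusted p of 0.292, 0.520 and 0.542. The arms differed in opposite directions on day 1 and day 3 for both genes, and the fit counts such a swing as spread. On day 1 the fitted value of Ptgs2 was 2.13 without PhIP/DSS day 1 and 8.61 without DSS day 1. On day 3 it was 6.74 without PhIP/DSS day 3 and 2.06 without DSS day 3, and Ptges was 3.79 and 0.35 without the same libraries. These are not ratios of the library kept, since the fit shifts it by part of the PhIP term of the other days. Observed log2 ratios of Ptgs2 to the control were 7.40 in PhIP/DSS and 3.42 in DSS on day 1, and 2.60 and 6.20 on day 3. Those of Ptges on day 3 were 1.03 in PhIP/DSS and 3.07 in DSS. Ptges3 had 1.14 (SE 0.25, edgeR adjusted p = 0.0756) on day 1, 0.66 (SE 0.25, edgeR adjusted p = 0.261) on day 3 and 0.43 (SE 0.25, edgeR adjusted p = 0.425) on day 7. Pla2g4a, Ptgs1, Ptges2 and Ptger4 stayed between -0.39 and 0.31 on the log2 scale on every day.

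Which genes were called depended on the 2 day 1 libraries. Without PhIP/DSS day 1, edgeR called 3 of the 9 on day 1 (Ptges3, Slco2a1 and Hpgd), 5 on day 3 (these and Ptgs2 and Ptges) and 4 on day 7 (Ptgs2, Ptges, Slco2a1 and Hpgd), beside 12.4%, 18.8% and 16.7% of all genes. Without DSS day 1 it called 5, 5 and 4, beside 35.5%, 17.8% and 15.7% of all genes. Leaving out any of the other 4 treated libraries left 0 called. In these fits the lone library of a day was assumed to vary like the rest. The fitted day 1 log2 fold change of Ptges was -0.10 without PhIP/DSS day 1 and 5.09 without DSS day 1. Neither is the ratio of the library kept, because the fit shifts that library by part of the PhIP term of the other days. The observed log2 ratio of Ptges to the control was 0.62 in DSS day 1 and 4.40 in PhIP/DSS day 1, so both lay above it. Slco2a1 and Hpgd kept their sign in each of the fits with a library left out.

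For day 7 against day 1, which set partial colitis beside the first day after DSS, Slco2a1 was higher on day 7 by a log2 of 0.50 (SE 0.14, edgeR adjusted p = 0.119) and Ptges3 had -0.72 (SE 0.20, edgeR adjusted p = 0.121). Hpgd had 0.39 (SE 0.15, edgeR adjusted p = 0.194) and Ptger4 0.22 (SE 0.11, edgeR adjusted p = 0.269). The fold changes of Ptgs2 and Ptges changed sign with 1 library. Ptgs2 had -1.43 (SE 1.93, edgeR adjusted p = 0.682) with all libraries, 3.14 (edgeR adjusted p = 0.0124) without PhIP/DSS day 1 and -3.35 (edgeR adjusted p = 0.00154) without DSS day 1. Ptges had -1.04 (SE 1.49, edgeR adjusted p = 0.701) with all libraries, 2.45 (edgeR adjusted p = 0.0206) without PhIP/DSS day 1 and -2.74 (edgeR adjusted p = 0.00159) without DSS day 1. Each of the 2 genes thus took opposite directions according to which day 1 library was kept. In each of those fits the kept library alone set the day 1 level. The swing of day 1 was then not counted as spread, and the calls rest on 1 pool for that day. Those fits called 2 of the 9 without PhIP/DSS day 1 (6.52% of all genes) and 4 without DSS day 1 (24.8%), the other 2 being Ptges3 at -0.98 (edgeR adjusted p = 0.00474) and Slco2a1 at 0.69 (edgeR adjusted p = 0.00936).

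PhIP before DSS went with opposite differences on different days for the inducible pair. Ptgs2 in PhIP/DSS was 15.9 times its DSS level on day 1 (95% interval 12.5 to 20.4), 0.0824 times on day 3 (0.0582 to 0.114) and 0.310 times on day 7 (0.256 to 0.375). Ptges was at 13.7 times (9.35 to 20.9), 0.244 times (0.165 to 0.352) and 0.563 times (0.410 to 0.766). For both genes PhIP/DSS was the higher arm on day 1 and the lower arm on days 3 and 7. Each value compares 1 pooled library with 1 other, so a difference between pools cannot be told apart from an effect of PhIP.

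On day 1, 2 of the 9 genes were past 2-fold higher in PhIP/DSS than in DSS (Ptgs2 and Ptges), where 6.52% of all genes were, and 0 lower, where 2.01% were. On day 3, 0 were higher (2.12%) and 3 were lower (Ptgs1, Ptgs2 and Ptges), where 4.41% were. On day 7, 0 were higher (1.95%) and 1, Ptgs2, was lower, where 2.65% were. Hpgd was at 0.738 times its DSS level on day 1 (95% interval 0.680 to 0.800), 0.704 times on day 3 (0.655 to 0.758) and 1.01 times on day 7 (0.944 to 1.09). Ptger4, Pla2g4a and Ptges2 stayed between 0.867 and 1.21 on all 3 days. Over the 3 days together the PhIP term was -0.83 (SE 1.77, edgeR adjusted p = 0.998) for Ptgs2 and -0.32 (SE 0.12, edgeR adjusted p = 0.998) for Hpgd on the log2 scale. With either day 1 library left out, the other only sets the day 1 level, so the PhIP term compares the arms on days 3 and 7 alone. The swing of day 1 is then not counted as spread, and the 2 fits are not separate checks. The Ptgs2 term was -2.51 without PhIP/DSS day 1 and -2.49 without DSS day 1. From days 1 and 7 alone, the Ptgs2 term was 1.08 without PhIP/DSS day 3 and 1.07 without DSS day 3. The Ptges term was 0.03 (edgeR adjusted p = 0.9995) with all libraries and -1.42 with either day 1 library left out. These were the 2 of 9 genes called in those fits, where 2.69% of all genes were called without PhIP/DSS day 1 and 2.34% without DSS day 1.

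**Figure D3:**
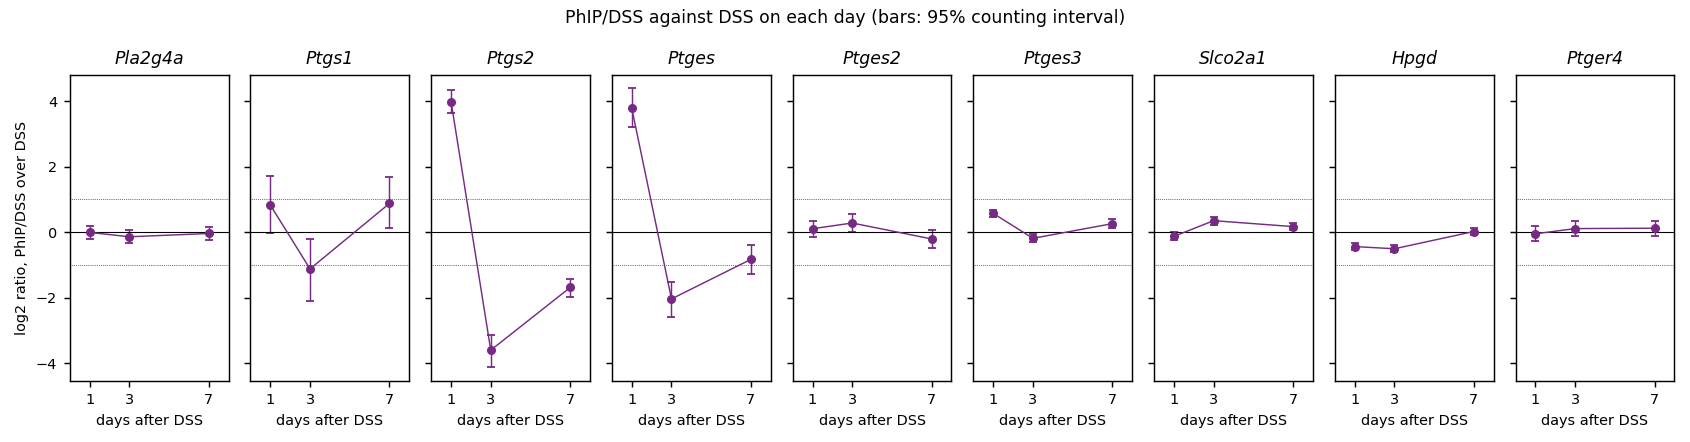
Log2 ratio of PhIP/DSS to DSS on days 1, 3 and 7 after DSS for the 9 genes past the filter, with 95% counting intervals and dotted lines at 2-fold. Ptgs2 and Ptges lie above 0 on day 1 (15.9-fold and 13.7-fold) and below 0 on days 3 and 7, while Pla2g4a, Ptges2 and Ptger4 stay near 0.

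Several cytokines and markers of other cell types were high in the same libraries as the inducible genes. Il1b, an inflammatory cytokine known to induce COX-2, had 263 RPKM in PhIP/DSS day 1, 7.51 RPKM on day 3 and 36.1 RPKM on day 7, 17.7, 127 and 101 RPKM in DSS and 1.28 RPKM in the control. The 7 libraries stood in the same order for Ptgs2, Il1b, Il1a and the summed level of 12 macrophage and monocyte markers. Others stood in a different order: DSS days 3 and 7 changed places for Osm and the fibroblast and matrix sum, PhIP/DSS day 1 and DSS day 3 for the neutrophil sum, and 2 pairs of neighbours for Tnf. Ptgs2 RPKM was 12.1%, 15.2% and 11.5% of Il1b RPKM in PhIP/DSS, 11.4%, 10.9% and 13.2% in DSS and 14.8% in the control. The band was narrow across libraries in which Ptgs2 itself varied widely. Its control value rests on 6 reads of Ptgs2 and 13 of Il1b. A part of Il1b in the level of Ptgs2 was not tested.

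The macrophage and monocyte markers summed to 539, 109 and 203 RPKM in PhIP/DSS, 117, 307 and 263 RPKM in DSS and 54.6 RPKM in the control, and none of the 12 was at 0 in any library. Against that sum Ptgs2 was not constant, at 5.93%, 1.05% and 2.05% in PhIP/DSS, 1.72%, 4.53% and 5.10% in DSS and 0.346% in the control. Of the 12 markers, between 8 and 12 were past 2-fold higher than the control in each treated library. The 9 neutrophil markers with reads summed to 825, 32.3 and 72.3 RPKM in PhIP/DSS, 36.5, 1169 and 476 RPKM in DSS and 2.99 RPKM in the control, where 3 of them (Clec4e, Retnlg and Mmp8) were at 0. The 10 fibroblast and matrix markers summed to 186, 39.8 and 74.4 RPKM in PhIP/DSS, 42.3, 93.7 and 97.7 RPKM in DSS and 14.2 RPKM in the control. Ptgs2 and Ptges can be made by macrophages and fibroblasts as well as epithelium, and the part of these cells in the results was not tested.

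Hpgd and Slco2a1 were also set against epithelial markers, which did not share a direction. Of the 10, Epcam, Krt18, Krt20 and Vil1 were above the control in all 6 treated libraries, and Cdh1 was below it in all 6, at 411 to 499 RPKM against 511 RPKM. Hpgd RPKM was 8.15%, 9.44% and 10.3% of Epcam RPKM in PhIP/DSS, 11.7%, 13.5% and 10.9% in DSS and 22.8% in the control. Slco2a1 RPKM was 3.48%, 3.91% and 4.51% of Epcam RPKM in PhIP/DSS, 4.02%, 3.09% and 4.29% in DSS and 11.03% in the control. Against Cdh1, Hpgd was at 16.2% to 27.3% in treated libraries and 32.0% in the control, and Slco2a1 at 6.25% to 10.4% in treated libraries and 15.5% in the control. All of these shares were lower in the 6 treated libraries than in the control, and the part of epithelial content in the results was not tested. Slc26a3, an anion exchanger gene of surface colonocytes, was also lower, at 110 to 175 RPKM in the treated libraries and 470 RPKM in the control, while the sum of 9 absorptive colonocyte markers was 2697 to 5202 RPKM in treated libraries and 4680 RPKM in the control. Slco2a1 is also an endothelial gene, and the 10 endothelial markers summed to 4.30 to 13.5 RPKM in treated libraries and 6.15 RPKM in the control, with the defining marker Pecam1 at 0.790 to 2.07 RPKM in treated libraries and 1.18 RPKM in the control.

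**Figure D4:**
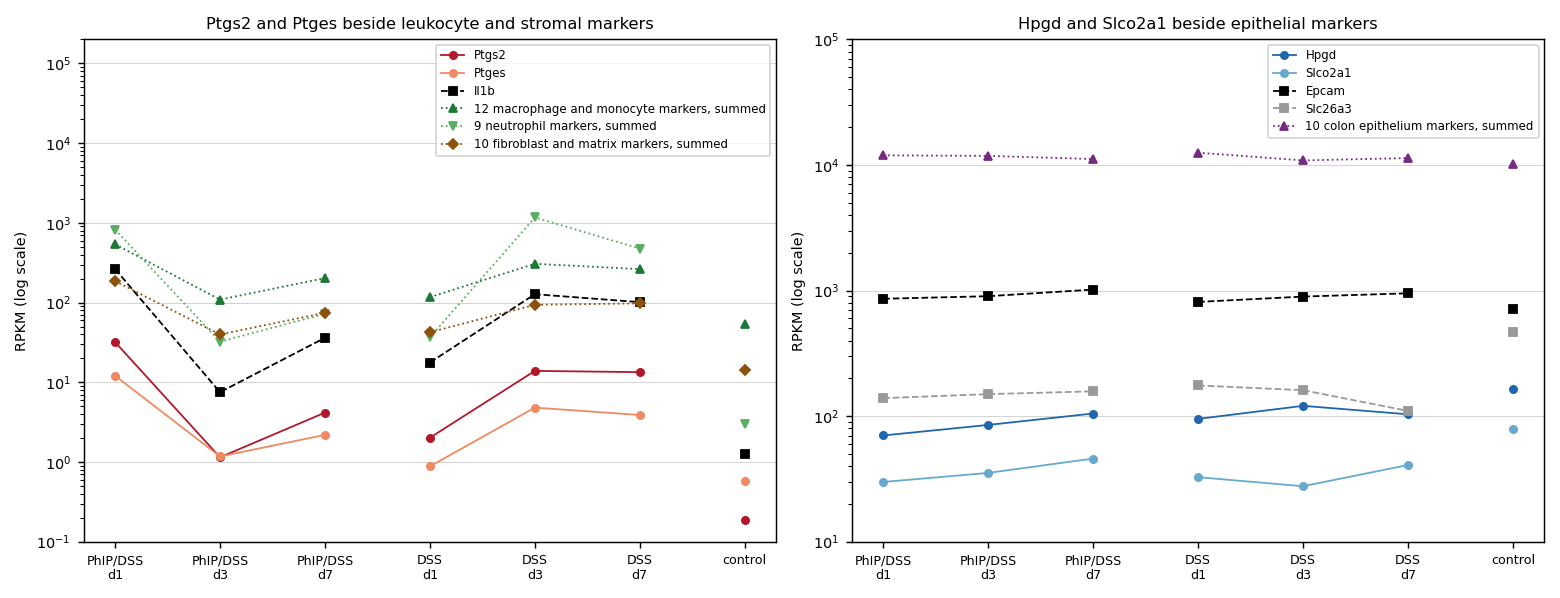
RPKM (log scale) of Ptgs2 and Ptges beside Il1b and summed leukocyte and stromal markers (left), and of Hpgd and Slco2a1 beside Epcam, Slc26a3 and summed epithelial markers (right), in the 7 libraries, with lines joining the days of an arm. Ptgs2 and Il1b have the same order of libraries, Hpgd, Slco2a1 and Slc26a3 are highest in the control, and the epithelial sum is lowest there, at 10203 RPKM.

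Genes with the most similar profile were found by the root mean square difference between centred log2(RPKM + 1) profiles over the 7 libraries, among all genes past the filter. For Ptgs2 they were Plek at 0.186, Fcer1g at 0.202, Tarm1 at 0.234, Clec4d at 0.251 and Srgn at 0.271, against a median of 1.62 over all genes. Plek, Fcer1g and Srgn are known from blood cells of many kinds. Ptges came at rank 82 with 0.686 and Il1b at rank 91 with 0.714. For Slco2a1 they were Crim1 at 0.0671, Rftn2 at 0.0871, Hpgds at 0.0912, Sfxn3 at 0.0975 and Dclk1 at 0.122, against a median of 0.496. Hpgds encodes the hematopoietic prostaglandin D synthase and Dclk1 is a marker of tuft cells, the chemosensory cells of the epithelium.

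For Hpgd the most similar profiles were Sox6 at 0.0788, Gk5 at 0.0888, Malat1 at 0.0949, Abca3 at 0.104 and Pm20d1 at 0.110, against a median of 0.402. For Ptger4 they were Foxo1 at 0.0260, Abr at 0.0334, Ell at 0.0334, Mtmr6 at 0.0356 and Marveld2 at 0.0364, against a median of 0.230. Ptger4 itself deviated by 0.125 about its mean, so many flat profiles come close to it. Hpgd and Slco2a1, which are both highest in the control, were 0.323 apart, with Hpgd at rank 1086 from Slco2a1.

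Beyond the 10 genes, a list by role held 53 other genes of prostanoid and leukotriene metabolism, of which 50 had reads and 32 passed the filter. Of the 32, edgeR called 0 at an adjusted p under 0.05 in the comparisons with the control. Past 2-fold, 10, 4 and 6 were higher and 5, 4 and 2 lower than the control in PhIP/DSS on days 1, 3 and 7. In DSS, 6, 8 and 9 were higher and 4, 4 and 4 lower. As shares of the 32 these were 12.5% to 31.3% higher and 6.25% to 15.6% lower, against 5.48% to 12.2% higher and 3.86% to 9.68% lower among all genes tested. The median log2 ratio of the 32 lay between -0.06 in PhIP/DSS day 1 and 0.18 in DSS day 7, and that of all genes tested between -0.06 in DSS day 7 and 0.02 in PhIP/DSS day 1. Past 2-fold in all 6 libraries, 2 of the 32 were higher (against 3.34% of all genes) and 1 lower (against 1.24% of all genes).

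Among phospholipases, the secreted enzymes of Pla2g2a and Pla2g5 stood further above the control than the cytosolic Pla2g4a. Pla2g2a had 28.4, 23.5 and 20.9 RPKM in PhIP/DSS, 24.9, 41.6 and 18.4 RPKM in DSS and 3.41 RPKM in the control. Pla2g5 had 33.6, 13.6 and 9.73 RPKM in PhIP/DSS, 23.5, 22.0 and 9.73 RPKM in DSS and 4.57 RPKM in the control. Both were past 2-fold higher in all 6 treated libraries, and in both day 7 was the lowest day of each arm. On day 1 their log2 fold changes were 2.96 (SE 0.46, edgeR adjusted p = 0.0710) and 2.64 (SE 0.43, edgeR adjusted p = 0.0710). Pla2g2e had 0 reads in the control and 0.808 to 8.54 RPKM in the treated libraries, which made it at least 18.6-fold higher in DSS day 7 against a floor of 3 reads in the control library. Other secreted phospholipase genes were not above the control throughout. Pla2g3 was below it in all 6 treated libraries, at 1.97 to 5.08 RPKM against 6.12 RPKM, and Pla2g2f and Pla2g10 overlapped it, at 15.2 to 34.0 RPKM against 28.6 RPKM and 64.3 to 110.2 RPKM against 88.1 RPKM.

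Ltc4s, which encodes leukotriene C4 synthase, was past 2-fold lower in all 6 libraries. It had 0.996, 1.21 and 1.62 RPKM in PhIP/DSS, 0.779, 1.16 and 1.44 RPKM in DSS and 3.77 RPKM in the control. These rest on 4 to 8 reads in the treated libraries and 17 in the control, so depth limits them. Its day 7 log2 fold change was -1.26 (SE 0.63, edgeR adjusted p = 0.376). Hpgds had 1.10, 1.73 and 2.17 RPKM in PhIP/DSS, 1.01, 0.898 and 1.87 RPKM in DSS and 4.27 RPKM in the control (day 1 log2 fold change -2.02, SE 0.36, edgeR adjusted p = 0.0711). Both genes are known from tuft cells, and 2 defining tuft markers were lower too. Dclk1 was at 0.596 to 1.56 RPKM in the treated libraries and 2.85 RPKM in the control, and the ion channel gene Trpm5 at 0.535 to 1.77 RPKM in the treated libraries and 4.70 RPKM in the control. The part of tuft cells in these values was not tested. Abcc4, an efflux pump for prostaglandins, was higher in all 6 treated libraries, at 6.05 to 7.55 RPKM, than in the control at 3.85 RPKM (day 1 log2 fold change 0.90, SE 0.16, edgeR adjusted p = 0.0711). Other genes listed for breakdown did not all follow Hpgd. Ptgr1 was above the control in all 6 treated libraries, at 7.35 to 9.56 RPKM against 6.02 RPKM. Ptgr2 and Zadh2 were below it in all 6, at 15.9 to 17.4 RPKM against 18.1 RPKM and 24.5 to 28.9 RPKM against 29.7 RPKM.

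Of the other EP receptors, Ptger3 had 0.953, 1.53 and 2.05 RPKM in PhIP/DSS, 0.987, 0.654 and 0.927 RPKM in DSS and 3.43 RPKM in the control. Every treated library was below the control. Ptger1 had 15.5, 21.0 and 23.3 RPKM in PhIP/DSS, 15.3, 15.4 and 25.4 RPKM in DSS and 22.1 RPKM in the control, so treated and control values overlapped, and it was the EP receptor with the highest level per length in each library. The prostaglandin D, F and I and thromboxane receptors were near the limit of detection, between 0 and 0.668 RPKM.

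**Figure D5:**
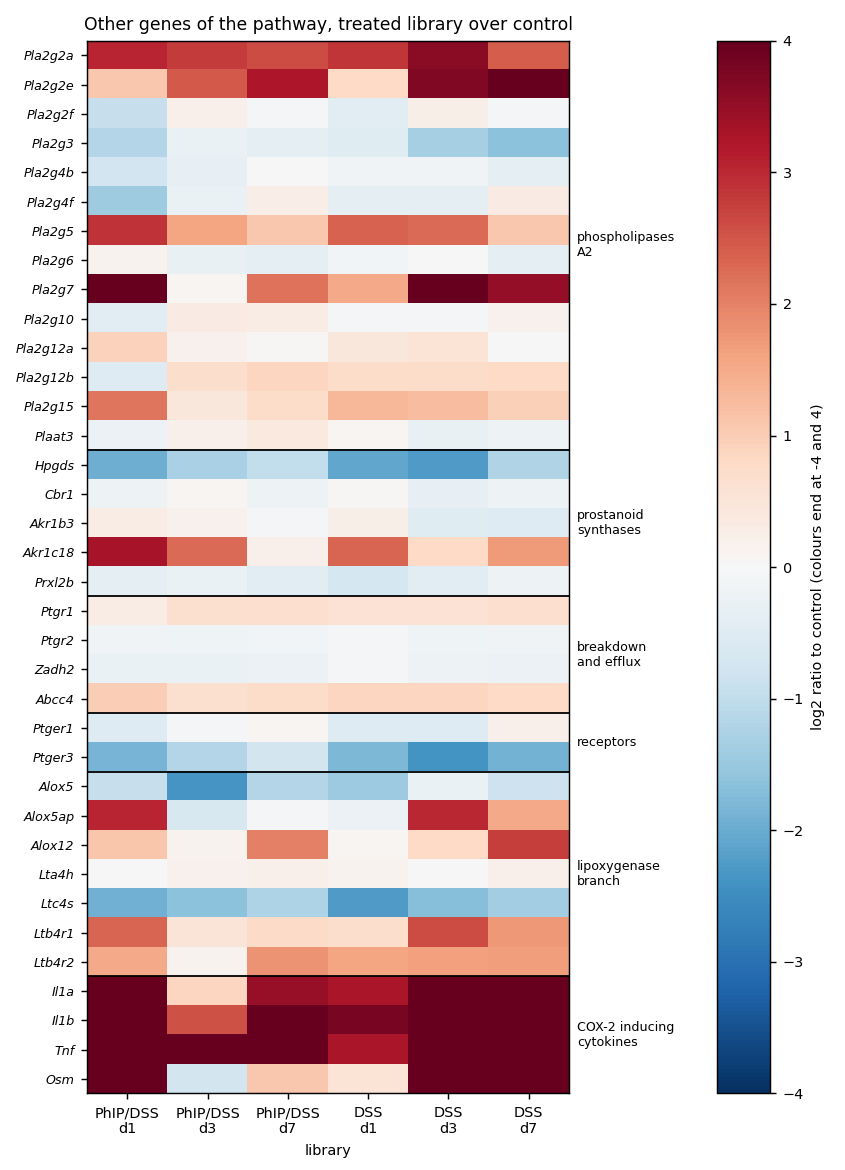
Log2 ratio to the control of the other pathway genes and of 4 COX-2 inducing cytokines past the filter, by role (rows) and treated library (columns), with colours ending at -4 and 4 and a floor of 3 reads where the control had 0. Pla2g2a and Pla2g5 are red and Ltc4s, Hpgds and Ptger3 blue across all 6 libraries.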

How the data were processed

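The deposited tables, 1 per library, hold counts of uniquely mapped reads per gene, the RPKM made from them and the percent of each gene's length covered by reads, per the file headers. The RPKM values that the authors deposited equalled reads over gene length and library total within a relative deviation of 7.8e-14. The submitters' processing notes name mm10 and FastQC. No source used here names the aligner, the counter, the annotation release or the use of strand. Gene identifiers were matched to symbols in a RefSeq table of GRCm38.p6, which named 17983 of 18036. A gene missing from a library's table was entered as 0 reads. Each library's condition comes from its labels, and the table names carry other day codes.

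The main test was edgeR 4.0.16 in R 4.3.3 on the counts of 12061 genes that reached 1 RPKM in 2 or more libraries, with TMM factors, the quasi-likelihood test, Benjamini-Hochberg adjustment over all of them and a call at an adjusted p under 0.05. The model held the control, each day and 1 term for PhIP, which left 2 residual degrees of freedom among 7 libraries, a common dispersion of 0.0563 and a biological coefficient of variation of 23.7%. The control was assumed to vary like the treated libraries, and p-values measure only the spread between these pools. The procedure was tested on simulated data. Ratios between 2 libraries used reads over each library's total of unique reads, with exact 95% intervals that cover counting error only, and a floor of 3 reads in place of 0. TMM factors lay between 0.980 and 1.02. Alternatives were DESeq2 1.42.0, limma 3.58.1 on log2(RPKM + 1) and log2(RPKM + 0.1), other scalings and filters, and each library left out.

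All 10 genes were to be named, other pathway genes if past 2-fold the same way in all 6 treated libraries or called by edgeR, and the 5 nearest profiles of 4 of the 10. Hpgds, Abcc4, Ptgr1, Ptgr2, Zadh2, Pla2g2e, Pla2g2f, Pla2g3, Pla2g10, Ptger1, Ptger3 and single markers and cytokines were picked for mention after their values were seen. The members and lists were chosen with earlier results of these data known. The summed level of the tuft cell list is not reported here.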

Additional observations from a re-analysis of the deposited data

Results flagged for a closer look

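For Ptgs1, Ptgs2, Ptges, Ptges3 and Slco2a1, PhIP/DSS was above DSS on at least 1 day and below it on another, each time with a 95% counting interval that left out 1. The share of all genes that meet this rule was not counted, so it cannot be called particular to these genes. The difference between days was not tested, since each arm and day had 1 library. Ptgs2 was at 15.9 times its DSS level in PhIP/DSS on day 1, 0.0824 times on day 3 and 0.310 times on day 7. Ptges was at 13.7, 0.244 and 0.563 times on the same days. For both, PhIP/DSS day 1 is also the library with the fat transcripts and the highest macrophage marker sum, and DSS day 3 the library with the highest neutrophil marker sum, and their part was not tested. Ptgs1 was at 1.78, 0.460 and 1.84 times on days 1, 3 and 7, from 15 to 43 reads per library. Ptges3 was at 1.49, 0.879 and 1.20 times. Slco2a1 was at 0.916, 1.28 and 1.13 times.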

How the results depend on the processing

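No paired analysis was possible because each condition had 1 library and the labels carry no replicate numbers to use as a block. The arms are matched by day, and day is a term of the model already. Over 603 values of single genes under other settings, 537 kept their direction and side of the threshold, 39 kept their direction and passed it, and 27 changed sign. Ptges3, Slco2a1, Hpgd and Ptger4 changed sign in none of them. The number of the 9 genes called was 0 in the full edgeR fit of every comparison and 4, 1, 1 and 1 with DESeq2 for day 1, day 3 and day 7 against the control and day 7 against day 1, where DESeq2 called 10.5%, 4.51%, 3.81% and 9.39% of all genes. With 1 library left out it ranged between 0 and 5 for day 1, 0 and 5 for day 3, 0 and 4 for day 7, 0 and 4 for day 7 against day 1, and 0 and 2 for PhIP/DSS against DSS, and the numbers above 0 came without PhIP/DSS day 1 or DSS day 1. The count past 2-fold was 2 at 3-fold in PhIP/DSS day 1 (5 at 2-fold), 1 at 3-fold in PhIP/DSS day 3 (4 at 2-fold), 4 at 1.5-fold in PhIP/DSS day 7 (2 at 2-fold), 6 at 1.5-fold and 1 at 3-fold in DSS day 1 (2 at 2-fold), and 4 at 1.5-fold in DSS day 7 (2 at 2-fold). For PhIP/DSS over DSS on day 7 it was 3 at 1.5-fold and 2 with no filter (1 at 2-fold). Shares of all genes were counted only at 2-fold with the filter. The counts under other settings therefore have no background and are not a result about these genes.

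Log2 fold changes that changed sign with 1 library left out ranged as follows. Ptgs1 ranged between -0.83 and 0.051 on day 1, -1.48 and 0.48 on day 3 and -0.47 and 0.52 on day 7 against the control, and Ptges between -0.10 and 5.09 on day 1. Where a day had 1 arm left, these values were shifted by part of the PhIP term of the other days. For day 7 against day 1 the ranges were -0.035 to 0.066 for Pla2g4a, -0.16 to 0.93 for Ptgs1, -3.35 to 3.14 for Ptgs2 and -2.74 to 2.45 for Ptges. For PhIP/DSS against DSS they were -0.15 to 0.84 for Ptgs1, -2.51 to 1.08 for Ptgs2, -1.42 to 1.40 for Ptges and -0.067 to 0.18 for Ptges2. Pla2g4a for day 7 against day 1 was also -0.019 with library totals, -0.018 and -0.019 with limma and -0.012 with a filter of 10 reads, and Ptges for PhIP/DSS against DSS was -0.049 with DESeq2. The cause was not tested. Depth limits Ptgs1, Ptger2 and the control level of Ptgs2, which rests on 6 reads.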
